A study of Mus musculus with 4 samples.

Results

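Fatty acid binding proteins and their uptake partners carry long-chain fatty acids, which hardly dissolve in water, across the plasma membrane and through the cell. The part of the liver transcriptome described here consists of 9 genes, selected by symbol from the 35739 genes of the salmon abundance table. They are the fatty acid binding proteins *Fabp1*, *Fabp2*, *Fabp4*, *Fabp5* and *Fabp7*, the uptake proteins *Cd36*, *Slc27a2* and *Slc27a4*, and *Dbi*, which encodes the acyl-CoA binding protein. All 9 were found once each, and all 9 reached the mean of 1 TPM (a length-corrected abundance, scaled to the same total in every library) that was required for the test.

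RNA-seq was performed on whole liver of WT mice (replicates 2 and 3) and of *Usp21* KO mice (replicates 1 and 3), which gave 2 libraries per genotype. Per the study's methods, the KO is constitutive: exons 3 and 4 of *Usp21*, which encodes a deubiquitinase, were removed with Cre recombinase in all tissues. Both genotypes were littermates aged 10 to 11 weeks from crosses of B6 mice with mice of a mixed background, kept on a normal diet under a light and dark cycle. As a check of the labels, *Usp21* was at 4.07 and 6.29 TPM in WT livers and 1.64 and 2.93 TPM in KO livers. It was lower in each KO library than in each WT library, as were 10.9% of all genes tested. The TPM is per gene and does not single out exons 3 and 4, so this check is weak. The labels give no sex, but the 4 Y-linked genes examined, with *Ddx3y* at 7.14 to 20.5 TPM, were above 0 in all 4 libraries. Nothing in the labels says that libraries were prepared on different days, and p-values measure only the spread between these 4 libraries. TPM keeps no record of depth, and salmon gave a value above 0 to 12876 to 13620 genes per library.

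Each fatty acid binding protein is a small cytosolic barrel that holds a fatty acid or a related lipid in its cavity. FABP1 is the liver form and FABP2 the intestinal form, FABP4 is known from adipocytes, macrophages and endothelium, FABP5 from epidermis and macrophages, and FABP7 from glia and, in the liver, from Kupffer cells. CD36 is a scavenger receptor at the plasma membrane that takes up fatty acids and oxidised lipoproteins. The SLC27A proteins (FATPs) couple uptake to the formation of acyl-CoA, and the acyl-CoA binding protein keeps these thioesters in solution for oxidation, esterification and elongation. PPAR-alpha, a nuclear receptor activated by fatty acids, is a known regulator of *Fabp1* and of several other genes of this group.

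The 5 *Fabp* genes share a gene structure. In the GENCODE M21 annotation of GRCm38, the principal transcript of each has 4 exons and a coding sequence of 381 to 405 bp, or 127 to 135 codons. *Fabp1* (ENSMUSG00000054422) lies on chromosome 6 from 71199827 to 71205023 and *Fabp7* (ENSMUSG00000019874) on chromosome 10 from 57784881 to 57788450, both on the forward strand. *Fabp4* (chromosome 3, 10204088 to 10208576, reverse strand) and *Fabp5* (chromosome 3, 10012548 to 10016607, forward strand) are in a cluster of 5 genes of the family within 289 kb, with *Pmp2* and *Fabp9* between them and *Fabp12* on the far side of *Fabp4*. *Fabp2* (122895072 to 122899506) is 113 Mb away on the same chromosome. *Dbi* (chromosome 1, 120113280 to 120121078) shares a chromosome with *Usp21* at a distance of 51.2 Mb.

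The sequences upstream of *Fabp1* and *Fabp7* are shown because these genes are the most and the least abundant of the 9. They come from RefSeq on build GRCm38.p6, forward strand, 5′ to 3′, and end at the base before the GENCODE gene start, at chr6:71199629-71199826 for *Fabp1* and chr10:57784673-57784880 for *Fabp7*. Capitals mark the nuclear receptor half-site AGGTCA on either strand, extended over a second half-site where the pair matched AGGNCANAGGTCA, the arrangement with a spacing of 1 base that PPAR-alpha and HNF4A are known to bind.

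Fabp1: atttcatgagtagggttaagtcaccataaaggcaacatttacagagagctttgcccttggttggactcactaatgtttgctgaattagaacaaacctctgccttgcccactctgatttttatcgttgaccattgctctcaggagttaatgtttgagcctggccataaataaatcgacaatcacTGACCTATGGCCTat

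Fabp7: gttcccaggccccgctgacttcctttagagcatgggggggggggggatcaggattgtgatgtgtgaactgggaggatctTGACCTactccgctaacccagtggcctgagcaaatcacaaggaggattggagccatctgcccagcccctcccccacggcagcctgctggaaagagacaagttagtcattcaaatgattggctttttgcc

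The paired half-sites of *Fabp1* lie 67 to 55 bases before the RefSeq start, and 31 of 32851 promoter windows of 300 bases (0.0944%) hold such a pair on either strand. A single AGGTCA is common, in 16.3% of windows. It was found in 4 of the 8 windows of members, those of *Fabp1*, *Fabp7*, *Slc27a2* and *Cd36*. The longer TAGGTCA, which contains that half-site, was found at the marked site of both printed sequences and in 2.61% of windows. RefSeq windows were matched for 7 members, with *Fabp4* and *Fabp5* unmatched. These matches describe letters only and say nothing of binding in these livers.

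The 9 genes covered a wide range of levels in TPM, as the plot of levels by library shows. In each of the 4 libraries *Fabp1* was the highest and *Fabp7* the lowest. *Fabp1* ranked between 22 and 30 among all genes of a library. *Dbi* (1348 to 1872 TPM over the libraries) and *Slc27a2* (334 to 492 TPM) followed without overlap of their ranges. Below them, *Fabp2*, *Fabp5*, *Fabp4*, *Cd36* and *Slc27a4* formed a lower tier with means from 35.8 down to 7.66 TPM, in which the ranges of neighbours overlapped. The order within that tier is not resolved by 4 libraries. *Fabp7*, with a mean of 2.86 TPM, was below the others.

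**Figure D1:**
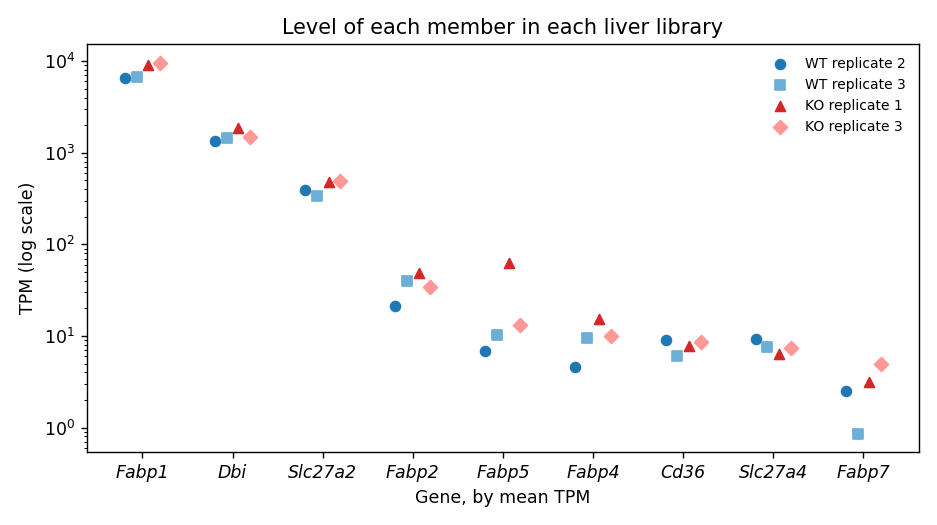
TPM (log axis) of the 9 genes in each of the 4 liver libraries, 1 point per library, ordered by mean TPM. *Fabp1* lies at 6560 to 9617 TPM and *Fabp7* at 0.858 to 4.89 TPM, and the *Fabp5* point of KO replicate 1 (63.2 TPM) stands apart from its other 3 points.

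Between the genotypes, 8 of the 9 genes had a higher mean log2(TPM + 1) in KO livers and 1, *Slc27a4*, a lower mean. Among all 9581 genes tested, 66.7% were higher. The lower KO library exceeded the higher WT library for 6 members (background 34.4%), and the reverse held for 1 (background 10.9%), and the groups overlapped for the remaining 2, *Fabp2* and *Cd36*. None of the 9 passed an adjusted p of 0.05 in limma with Benjamini-Hochberg adjustment over all genes tested, compared with 0.0835% of all genes. The unadjusted p was under 0.05 for 1 member, *Slc27a2* (background 10.5%), and the difference was at least 2-fold for 1 member, *Fabp5* (background 3.68%). With counts this small, a share of 1 in 9 says little beside these backgrounds. The median log2 fold change was 0.46 over the 9 members and 0.15 over all genes tested. A single gene tested by exact permutation over 2 against 2 libraries cannot give a p below 0.333.

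*Fabp1* was listed at 6560 and 6659 TPM in WT livers and at 9186 and 9617 TPM in KO livers. The genotypes did not overlap, and the 2 libraries of a genotype lay within a factor of 1.05 of each other. The means were 6609 ± 69.9 and 9401 ± 305 TPM (SD, n = 2 each), a log2 fold change of 0.51 on log2(TPM + 1) with a standard error (SE) of 0.23 (95% interval -0.06 to 1.08, limma, adjusted p = 0.493, unadjusted p = 0.0714). The standard error leans on the variance of other genes at this level, since 2 libraries say little about the variance of a single gene. Without moderation of the variances the adjusted p was 0.429. Leaving out any 1 library kept the log2 fold change within 0.47 to 0.54, the narrowest range of the 9. As 82.7% of the tested genes had a lower log2 fold change, a difference of this size was not unusual in these libraries.

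*Fabp7* had 2.53 and 0.858 TPM in WT against 3.17 and 4.89 TPM in KO. Both KO libraries were higher, but WT replicate 2 was nearer to KO replicate 1 than to WT replicate 3. The log2 fold change was 0.95 (SE 0.39, 95% interval -0.03 to 1.93, limma adjusted p = 0.478, unadjusted p = 0.0548). It was 0.49 without WT replicate 3, 1.42 without WT replicate 2 and 0.44 with a pseudocount of 5. The transcript of *Fabp1* was 2595 and 7758 times as abundant as that of *Fabp7* in the WT libraries and 2896 and 1966 times as abundant in the KO libraries. The log2 ratio of *Fabp7* to *Fabp1*, each as TPM + 1, was -10.86 and -11.81 in WT and -11.10 and -10.67 in KO. KO replicate 1 fell between the WT libraries. The difference of the means, KO minus WT, was 0.45 (exact permutation test, two-sided, p = 0.667), and it was -0.03 without WT replicate 3 and -0.07 with a pseudocount of 5. With a pseudocount of 0.1 it was 0.84. A change of *Fabp7* relative to *Fabp1* was not resolved.

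*Fabp5* had 6.80 and 10.2 TPM in WT, 63.2 TPM in KO replicate 1 and 13.1 TPM in KO replicate 3. The KO libraries differed from each other by a factor of 4.84, more than KO replicate 3 differed from either WT library. Its log2 fold change of 1.69 (SE 0.70, limma adjusted p = 0.478, unadjusted p = 0.0545) was the largest of the 9. Without KO replicate 1 it was 0.59, and without KO replicate 3 it was 2.78, so a single library carries most of it. *Fabp5* also has processed pseudogenes: 9.27% of the 31-base stretches of its transcripts occur in another gene, most of them in *Gm6166* (7.24%). That pseudogene was listed at 0.634 TPM in KO replicate 1 and at 0 in the other libraries.

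*Fabp4*, the neighbour of *Fabp5* in the chromosome 3 cluster, was measured at 4.61 and 9.47 TPM in the WT livers against 15.4 and 9.91 TPM in the KO livers. KO replicate 1 was again the highest library, while KO replicate 3 was level with WT replicate 3. The log2 fold change was 0.80 (SE 0.38, limma adjusted p = 0.496), with 0.35 without WT replicate 2 and 1.25 without WT replicate 3. The other genes of the cluster were at or near 0: *Pmp2* and *Fabp9* were listed at 0 in all 4 libraries, and *Fabp12* at 0.509 TPM in WT replicate 3 alone.

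*Fabp2* was measured at 21.4 and 39.8 TPM in the WT livers against 48.3 and 33.9 TPM in the KO livers. The genotypes overlapped, and the WT libraries differed from each other by a factor of 1.86, more than the means of the genotypes did (1.34). Its log2 fold change of 0.46 (SE 0.34, limma adjusted p = 0.625) became 0.03 without WT replicate 2. *Fabp1* supplied between 98.6% and 99.5% of the summed TPM of the 5 *Fabp* genes in each library. The sum followed it, with 6595 and 6719 TPM in WT livers and 9316 and 9679 TPM in KO livers, or 0.661% and 0.673% of a WT library and 0.934% and 0.970% of a KO library. The 4 minor *Fabp* genes together came to 35.3 and 60.3 TPM in WT livers and 130.0 and 61.8 TPM in KO livers, with KO replicate 3 close to WT replicate 3.

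**Figure D2:**
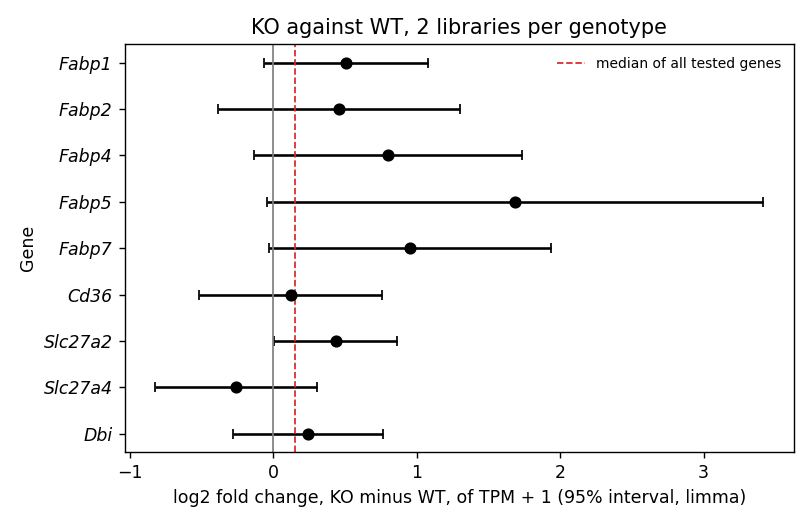
Log2 fold change of log2(TPM + 1), KO minus WT, with its 95% interval from limma for each of the 9 genes (2 libraries per genotype). The interval lies wholly above 0 for *Slc27a2* alone (0.01 to 0.86, unadjusted), and the dashed line marks the median of all tested genes at 0.15.

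Among the uptake proteins, *Slc27a2* (FATP2, the main very-long-chain acyl-CoA synthetase and fatty acid transporter of hepatocytes; chromosome 2, 126552407 to 126588243) was measured at 387 and 334 TPM in the WT livers against 480 and 492 TPM in the KO livers. Both KO libraries were higher by more than the WT libraries differed from each other. The log2 fold change was 0.43 (SE 0.17, 95% interval 0.01 to 0.86, adjusted p = 0.472, unadjusted p = 0.0480, limma), and leaving out any 1 library gave 0.33 to 0.54. A stretch of 10.3% of the 31-mers of *Slc27a2* also belongs to the lincRNA *Gm26697*, which the abundance table does not list.

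*Slc27a4* (FATP4, a more widely expressed relative; chromosome 2, 29802634 to 29817522) went the other way, with 9.30 and 7.59 TPM in WT livers and 6.32 and 7.42 TPM in KO livers. KO replicate 3 was within 0.164 TPM of WT replicate 3, although the groups did not overlap. The log2 fold change was -0.26 (SE 0.23, limma adjusted p = 0.672), with values from -0.39 to -0.13 when libraries were left out. The ratio of the *Slc27a2* transcript to the *Slc27a4* transcript was 41.7 and 44.0 in WT and 75.9 and 66.3 in KO. Each gene alone already separated the genotypes, in opposite directions, so the ratio could not overlap and adds nothing to them. This ratio was not tested and says nothing of the proteins. Among all single genes tested, both KO libraries lay above both WT libraries for 34.4% and below them for 10.9%.

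*Cd36* (chromosome 5, 17781690 to 17888801) was measured at 9.07 and 6.11 TPM in the WT livers against 7.77 and 8.65 TPM in the KO livers. Both KO libraries lay between the WT libraries. Its log2 fold change of 0.12 (SE 0.26, 95% interval -0.52 to 0.76, adjusted p = 0.871, limma) was below the median of all genes and became -0.13 without WT replicate 3.

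*Dbi* was measured at 1348 and 1460 TPM in the WT livers against 1872 and 1475 TPM in the KO livers. KO replicate 3 exceeded WT replicate 3 by 14.6 TPM only, and KO replicate 1 was the high library. The log2 fold change was 0.24 (SE 0.21, limma adjusted p = 0.668), and 0.07 without KO replicate 1. *Fabp1* was 4.86 and 4.56 times as abundant as *Dbi* in WT and 4.91 and 6.52 times in KO.

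**Figure D3:**
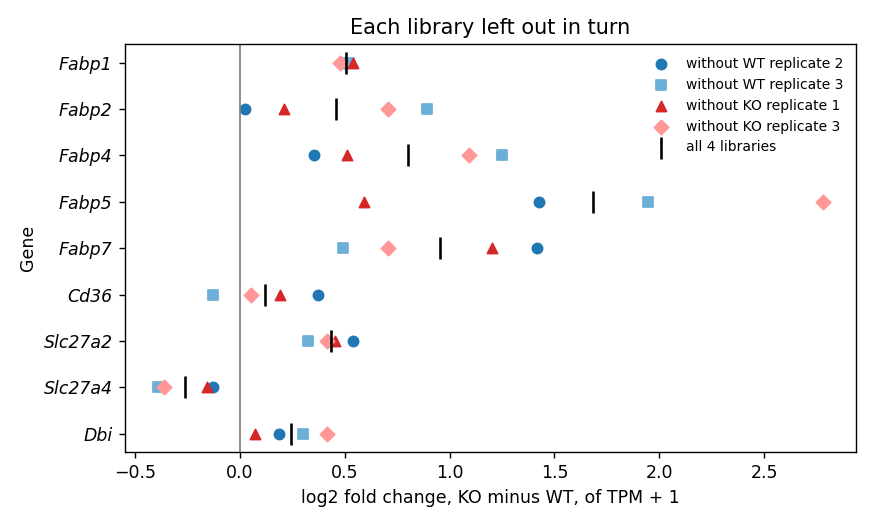
Log2 fold change of log2(TPM + 1), KO minus WT, for each of the 9 genes with all 4 libraries (bar) and after removal of each library (points). *Fabp1* stays within 0.47 to 0.54, *Fabp5* spreads from 0.59 to 2.78, and only *Cd36* crosses 0.

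The scale of the libraries bears on these values. The median log2 fold change of all genes was above 0, and upper quartile scaling moved it from 0.15 to 0.04. Relative to the median of all genes, the log2 fold change was 0.36 for *Fabp1*, 1.54 for *Fabp5*, 0.80 for *Fabp7*, 0.65 for *Fabp4*, 0.31 for *Fabp2*, 0.28 for *Slc27a2*, 0.09 for *Dbi*, -0.03 for *Cd36* and -0.41 for *Slc27a4*. *Cd36* thus changes sign on this scale and the other 8 keep theirs.

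The other genes of fatty acid binding, uptake and activation were taken from lists. Of 9 further genes of the intracellular lipid-binding protein family, 7 had no signal in any library. The other 2, *Fabp3* and *Fabp12*, were under the mean of 1 TPM. A listed gene whose result is not reported here is left out of these 9, so the count does not describe the whole family. Over the lists of uptake and activation genes and of acyl-CoA and lipid binding genes, 21 genes were tested, with 12 higher and 9 lower in KO and a median log2 fold change of 0.07. None passed an adjusted p of 0.05 in limma, while 2 higher genes and 1 lower gene had an unadjusted p under 0.05. Over all genes tested, 66.7% were higher and 10.5% had such a p, so 3 of 21 is close to the background and is no result about these lists.

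The higher genes were *Lpl* and *Acbd5*. *Lpl*, which encodes lipoprotein lipase, was measured at 4.73 and 4.60 TPM in the WT livers against 30.9 and 9.93 TPM in the KO livers (a log2 fold change of 1.72, limma adjusted p = 0.464, unadjusted p = 0.0155). As with *Fabp5* and *Fabp4*, its highest value was in KO replicate 1. *Acbd5*, a peroxisomal acyl-CoA binding protein, was measured at 54.8 and 52.5 TPM in the WT livers against 86.4 and 76.1 TPM in the KO livers (a log2 fold change of 0.59, limma adjusted p = 0.464). The lower gene was *Gpihbp1*, whose product anchors lipoprotein lipase to capillary endothelium, with 16.3 TPM in both WT libraries and 10.9 and 10.7 TPM in KO (a log2 fold change of -0.55, limma adjusted p = 0.464). *Slc27a5* encodes the liver FATP that also activates bile acids. It was measured at 289 and 305 TPM in the WT livers against 282 and 258 TPM in the KO livers. The log2 fold change of -0.14 (SE 0.16, limma adjusted p = 0.763) was smaller than its standard error, so its direction was not resolved.

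**Figure D4:**
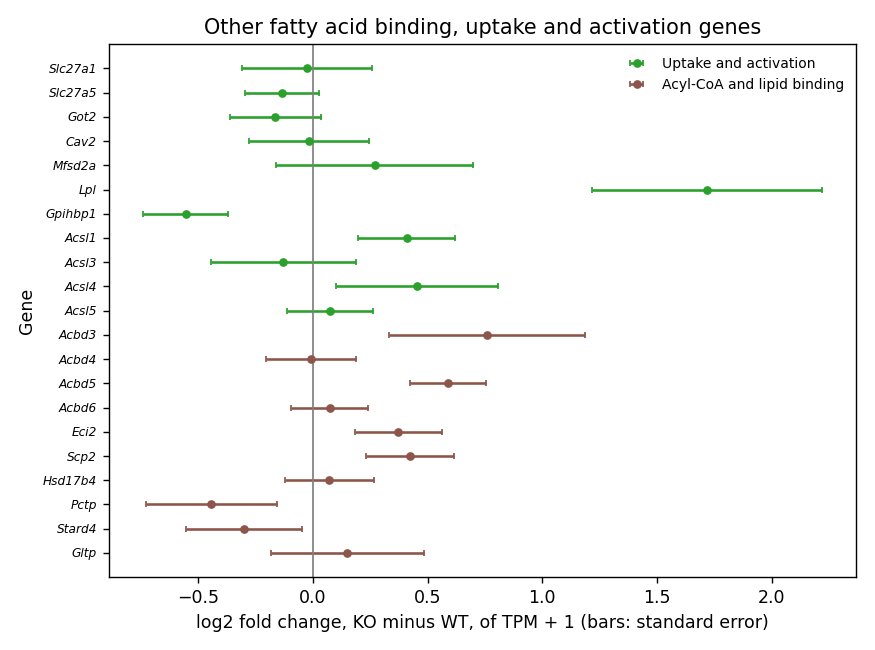
Log2 fold change of log2(TPM + 1), KO minus WT, with its standard error for the 21 tested genes of uptake and activation and of acyl-CoA and lipid binding. *Lpl* (1.72) lies highest and *Gpihbp1* (-0.55) lowest.

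Of 18 nuclear receptors and other factors that bear on such genes, all 18 were tested, with 10 higher and 8 lower in KO and a median log2 fold change of 0.05. Beside the same backgrounds (66.7% higher, 10.5% with an unadjusted p under 0.05 and 3.68% at least 2-fold), 1 of 18 under that p and 1 of 18 at that fold do not set the factors apart. The only unadjusted p under 0.05 among them was that of *Hnf4a*, a nuclear receptor of hepatocyte identity, with 112 and 105 TPM in WT livers and 171 and 155 TPM in KO livers (a log2 fold change of 0.59, limma adjusted p = 0.464). *Foxa1*, a forkhead factor, differed by at least 2-fold (2.53 and 1.61 TPM in WT, 8.97 and 3.01 TPM in KO, log2 fold change 1.06, adjusted p = 0.489, limma), with its highest value again in KO replicate 1. *Ppara* was measured at 11.6 and 12.8 TPM in the WT livers against 13.2 and 13.9 TPM in the KO livers (a log2 fold change of 0.15, limma adjusted p = 0.784), which is close to the median of all genes.

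Markers of other cell types were summed in each library, since several members are known from cells other than hepatocytes. The 9 Kupffer cell markers came to 212 and 249 TPM in WT livers and to 114 and 290 TPM in KO livers, with overlap. Of the 9, 0 were higher and 0 lower in both KO libraries than in both WT libraries (background 34.4% and 10.9%). The defining marker *Clec4f* was at 32.1 and 39.2 TPM in WT livers and 30.0 and 58.0 TPM in KO livers. *Fabp7*, known in the liver from these cells, had 2.53 and 0.858 TPM in WT livers and 3.17 and 4.89 TPM in KO livers. Both the marker sum and *Clec4f* were lowest in KO replicate 1 and highest in KO replicate 3. *Fabp7* was also highest in KO replicate 3, but lowest in WT replicate 3. The part of Kupffer cells in the values of *Fabp4*, *Fabp5* and *Fabp7* was not tested. The 9 liver endothelial markers came to 71.5 and 56.4 TPM in WT livers and 65.3 and 83.6 TPM in KO livers, with overlap. Of these 9, 3 were higher and 0 lower in both KO libraries (background 34.4% and 10.9%). The summed level of the 8 stellate cell markers (58.8 and 48.2 TPM in WT, 98.6 and 72.5 TPM in KO) and that of the 5 cholangiocyte markers (14.6 and 15.9 TPM in WT, 37.9 and 24.5 TPM in KO) were higher in both KO libraries and highest in KO replicate 1. Of the single markers, 4 of the 8 and 2 of the 5 were higher in both KO libraries (background 34.4%). With counts this small, these shares say little beside that background. The defining stellate marker *Lrat* overlapped (2.02 and 1.24 TPM in WT, 1.96 and 2.09 TPM in KO), and the cholangiocyte marker *Krt19* did not (0.196 and 0.263 TPM in WT, 0.998 and 1.28 TPM in KO). Like *Fabp5*, *Fabp4* and *Lpl*, these sums were higher in KO and highest in its replicate 1, and their part in those values was not tested. Over all genes tested, the median log2 fold change was 0.22 without KO replicate 3 and 0.08 without KO replicate 1. Genes in general thus lay somewhat higher in KO replicate 1. The share of all genes that were highest in that library was not counted. In bulk liver, a change in the number of cells of a type and a change in RNA per cell cannot be told apart.

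Markers of the adipocytes, enterocytes and glia for which FABP4, FABP2 and FABP7 are best known were at or near 0. *Adipoq* (adipocyte) was listed at 0 in 3 libraries and at 0.224 TPM in KO replicate 3, *Vil1* (enterocyte) at 0.127 TPM in KO replicate 1 alone, and *Sox10* (glia) at 0 in all 4 libraries. The 6 adipocyte markers summed to 0.325 to 2.12 TPM per library, with the extremes both in KO. The 6 enterocyte markers came to 0.877 and 1.10 TPM in WT livers and 3.40 and 1.81 TPM in KO livers. Of the 6, 1 reached a mean of 1 TPM. The 6 glial markers came to 0.593 and 0.173 TPM in WT livers and 0.779 and 0.832 TPM in KO livers, and 0 of them reached that mean. These sums are a few TPM at most, and their part in the values of *Fabp2* and *Fabp7* was not tested. Both KO libraries were higher for 0 of the 6 adipocyte, 1 of the 6 enterocyte and 2 of the 6 glial markers (background 34.4%). The defining hepatocyte marker *Alb*, which encodes albumin, was listed at 43181 and 32024 TPM in WT livers and at 31006 and 27475 TPM in KO livers, lower in both KO libraries, with WT replicate 3 close to KO replicate 1. The sum of the 6 hepatocyte markers was 91606 and 72928 TPM for WT and 74690 and 64374 TPM for KO, with overlap. Of these 6, 1 was higher and 1 lower in both KO libraries (background 34.4% and 10.9%).

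Among 9374 protein-coding genes tested, those most like a member were found from the root mean square difference of their deviations from their own mean log2(TPM + 1) over the 4 libraries. For *Fabp7* these were *Tlcd4* (0.06), *Nlk* (0.09) and *A1cf* (0.11), which share its order of libraries, with WT replicate 3 lowest and KO replicate 3 highest. For *Fabp1* the nearest were *Bex3* (0.01), *Appl1* (0.01) and *Nckap1* (0.02), and 343 genes lay within 0.1 of it. At the low levels of *Bex3* (1.35 to 2.43 TPM) and *Appl1* (0.829 to 1.66 TPM), the pseudocount of 1 reduces the step. For *Slc27a2* they were *Alg10b*, *Epb41l5* and *Dusp3* (0.01 each), and 370 genes lay within 0.1. Likeness over 4 libraries is a description. With 343 and 370 of 9374 genes that near, such a step of log2(TPM + 1) by genotype was not particular to *Fabp1* or *Slc27a2*.

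The second deposited table, of reads counted on alignments, could not resolve these genes. For 6 of the 9 it held no read in any library. *Fabp1* and *Dbi* had 1 read each in KO replicate 3 and *Slc27a2* 1 read in WT replicate 3, out of 102898 to 148164 recovered reads per library. Counting error alone lets a gene listed at 0 have up to 3 reads, which is 20.0 to 27.7 CPM. That limit lies far below the 6560 to 9617 TPM of *Fabp1*, one of the 30 highest genes of every library by TPM, although TPM is corrected for length and CPM is not. Of the 100 genes with the highest mean TPM, which held 68.2% of all TPM, 38 had no read in any library of that table and 37 had 1 to 3 reads over the 4 libraries. The tables thus disagree on the most abundant genes of the liver, and the reason was not tested. No direction was drawn here from the table of counted reads.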

How the data were processed

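Liver RNA-seq of 2 WT and 2 *Usp21* KO mice was analysed. The authors estimated abundances with salmon (mm10) and deposited them per gene as TPM, and a second table holds log2(TPM + 1), which the deposited TPM reproduce. The authors also deposited HTSeq counts scaled by TMM (CPM, a count-based signal) and their log2 values. The CPM fell on whole multiples of 1 read in 100% of values (tolerance 0.02 reads), and edgeR called 12 genes on the recovered reads. Versions, annotation release and strand setting are not given in the sources used here.

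The main test was limma 3.58.1 (lmFit, eBayes with trend) on log2(TPM + 1). Tests were two-sided, and p-values were adjusted (Benjamini-Hochberg) across 9581 genes whose mean reached 1 TPM. The prior degrees of freedom were 3.62. Alternatives were pseudocounts of 0.1 and 5, other filters, upper quartile scaling, unmoderated variances, CPM, edgeR 4.0.16, DESeq2 1.42.0 and each library left out. The members, lists and the choice of TPM were set with earlier results of these data known. Named were the members, the 3 nearest profiles and genes sharing 31-mers. List genes were named if their unadjusted p was under 0.05 or their change at least 2-fold. *Slc27a5*, *Ppara*, *Fabp3*, *Fabp9*, *Fabp12* and *Pmp2* did not meet this rule and were named besides. Scripts were tested on simulated data. A result for 1 listed gene is not reported here.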

Additional observations from a re-analysis of the deposited data

How the results depend on the processing

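On TPM, 72 values of single members came from settings that can move a fold change (pseudocounts, upper quartile scaling, the median of all genes and libraries left out), and 70 of them kept their direction. Other filters and unmoderated variances leave the fold change as it is. The log2 fold change of *Cd36* ranged from -0.13 (without WT replicate 3) to 0.37 with libraries left out and was -0.030 relative to the median of all genes, an alternative chosen after seeing the data. That of *Slc27a2*, one of the 3 members with a read (1 each) in the CPM table, was -1.67 on the CPM, -2.37 in edgeR and -1.68 in DESeq2. These values rest on that read and carry no direction. The *Fabp7* to *Fabp1* log2 ratio, 0.45 as reported, was 0.84 with a pseudocount of 0.1, -0.071 with a pseudocount of 5 and -1.68 on the CPM, where *Fabp7* was at 0, and ranged from -0.028 to 0.92 with libraries left out. The number of members changed at least 2-fold, 1 as reported, was 2 with a pseudocount of 0.1, 3 on the CPM, in edgeR and in DESeq2 (each a gene with 1 read), and 1 to 2 with libraries left out. The share of all genes moved likewise, from 3.68% to 8.56% with a pseudocount of 0.1 and to 56.6% to 60.9% on the CPM, in edgeR and in DESeq2. No member and no other list gene passed the adjusted threshold in any alternative, which says nothing of stability, since 0 of all genes passed it with a library left out or with unmoderated variances and 1 on the CPM and in DESeq2. In a fit with 1 library in a genotype, that library was assumed to vary like the others. No paired analysis was possible because the labels give no pairing of the libraries.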
